A study of Mus musculus with 6 samples.

Results

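The amino acid catabolism enzymes are 41 genes listed by symbol, which cover the breakdown of tyrosine, tryptophan, histidine, serine, glycine, proline, ornithine, lysine and the branched-chain amino acids, together with the transaminases, glutamate dehydrogenase and the glyoxylate transaminase. All 41 were found among the 25690 genes of the deposited table, all 41 were among the 10405 genes that passed a filter on low values (an FPKM value, averaged over the 6 libraries, of 1 or more; FPKM counts fragments relative to transcript length and depth), and none was listed at 0 in any library. RNA of mouse liver was sequenced in 3 libraries of the wild type control group (titled C34, C38 and C42, here wild type replicates 1, 2 and 3) and 3 libraries of the group with a hepatic knockout of FTO (titled K7, K11 and K12, here FTO knockout replicates 1, 2 and 3). FTO demethylates N6-methyladenosine, a common mark on messenger RNA, and the comparison is that of liver RNA levels between the 2 groups. The strain, age, sex and diet of the animals and the way the gene was deleted are not given in the sources used here. The labels do not say that each library came from a separate animal, so the p-values measure only the spread among these samples, and that spread may be technical.

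The liver is the main site of amino acid breakdown. Transaminases move the amino group of most amino acids onto a keto acid, glutamate dehydrogenase releases it as ammonia, and the carbon skeletons are cut down, by enzymes of the cytosol and of the mitochondrion, to intermediates of the citric acid cycle, acetyl units or single carbon groups carried by folate. Branched-chain amino acids differ in that their first transamination takes place mostly outside the liver, which then oxidises the keto acids. Several of these genes, among them Tat, Tdo2 and Sds, are textbook targets of glucocorticoids, glucagon or fasting.

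In the FTO knockout libraries 2 of the 41 genes fell, Gldc of glycine cleavage and Pcca of propionyl-CoA carboxylation, and 0 rose by limma at an adjusted p under 0.05. Among all tested genes, 1.65% were called lower and 1.11% higher. At an unadjusted p under 0.05, 14 of the 41 genes were lower and 1, Acmsd, was higher, while 10.0% of all tested genes were lower and 8.65% higher at that level. In 15 of the 41 genes all 3 knockout libraries lay below all 3 wild type libraries, and in 1 gene all 3 lay above. The share of all tested genes was 13.0% below and 11.5% above. The log2 change, knockout minus wild type on the log2(FPKM + 1) scale, was below 0 for 31 of the 41 genes and 10 were above 0. Its median was -0.27 over the 41 genes and 0.00 over all tested genes, where 50.3% of changes were below 0. In bulk tissue, fewer cells of a type and less RNA per cell cannot be told apart.

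**Figure D1:**
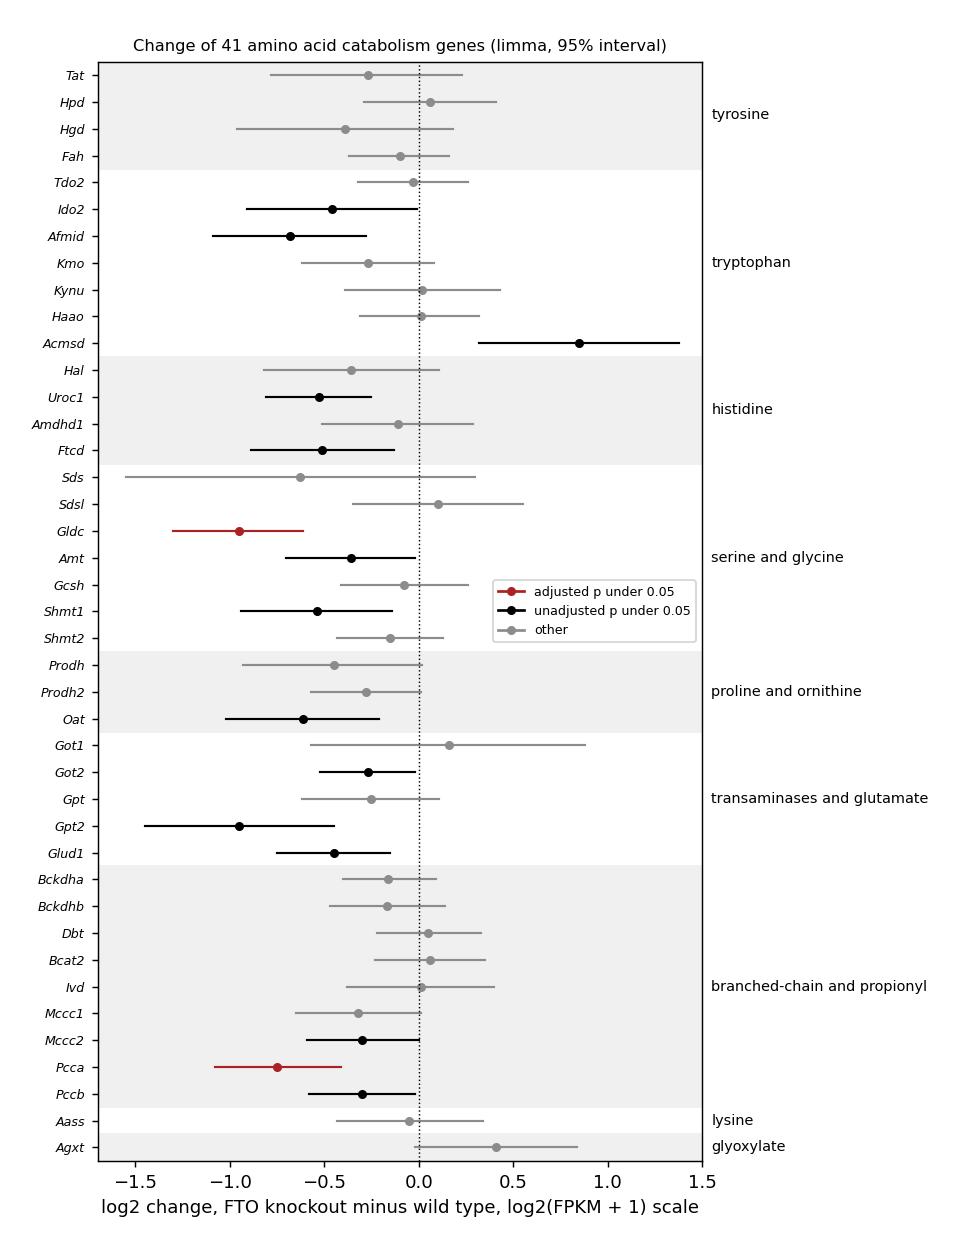
Log2 change (FTO knockout minus wild type, log2(FPKM + 1) scale) of each of the 41 genes, grouped by pathway, with the 95% interval from limma. Gldc and Pcca, in red, passed an adjusted p of 0.05; Acmsd is the only black point to the right of 0.

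The low values were not spread evenly over the knockout libraries. FTO knockout replicate 1 held the lowest of the 6 values in 30 of the 41 genes, or 73.2%, against 26.6% of all tested genes. Wild type replicate 3 held the highest value in 19 of the 41 genes, or 46.3%, against 28.8% of all tested genes. The median log2 deviation of the 41 genes from their mean over the 6 libraries was -0.33, 0.00 and -0.07 in knockout replicates 1, 2 and 3, and 0.01, 0.15 and 0.17 in wild type replicates 1, 2 and 3. Without knockout replicate 1 the median log2 change was -0.15, 12 genes were above 0 and 0 genes were called lower by limma, with 7 lower and 2 higher at an unadjusted p under 0.05. Without wild type replicate 3 the median was -0.19 and 4 genes were called lower, namely Afmid, Gldc, Pcca and Uroc1. Calls over all tested genes moved the same way. With all libraries 172 of 10405 were called lower, against 65 of 10454 without knockout replicate 1 and 240 of 10374 without wild type replicate 3. The median change over all tested genes was 0.01 and 0.02 in these fits. Their shares at an unadjusted p were not taken over all genes. The coefficient of variation within a group had a median of 10.1% over the 41 genes in wild type and 16.2% in knockout, where the medians over all tested genes were 13.3% and 11.5%.

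**Figure D2:**
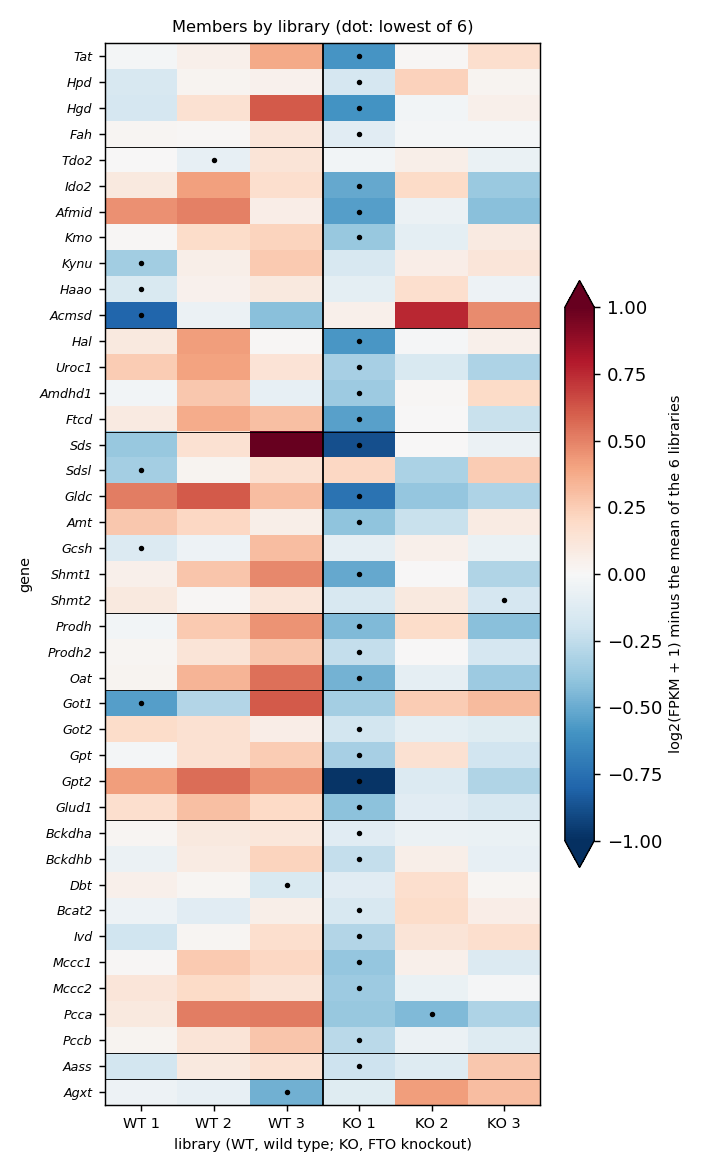
Value of each of the 41 genes in each library, as log2(FPKM + 1) minus the mean of the 6 libraries, with a dot on the lowest library. The column of FTO knockout replicate 1 carries 30 of the dots, and Sds stands out in wild type replicate 3.

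Fto itself was at 6.67, 6.02 and 6.40 FPKM in the wild type libraries and at 1.79, 3.83 and 2.66 FPKM in knockout replicates 1, 2 and 3, and it fell with an adjusted p of 0.0386 in limma (0.0662 and 0.146 when knockout replicate 1 or 3 was left out, 0.0804 and 0.113 when wild type replicate 1 or 2 was, and 0.0975 if low genes were kept). The knockout mean was 43.4% of that of wild type, so Fto RNA was reduced and not absent. Knockout replicate 1 had the lowest Fto value as well as the lowest values of most of the 41 genes. The part of that library in the result beyond the values without it was not tested. Depth, inferred from the value of 1 fragment in low genes, was 34.1 to 42.5 (in units of 1e6 fragments) per library. It is a rough figure, as only values pointing to a depth inside a preset range were used. These were 49 to 60 values per library, out of 964 genes examined, and the result had to fall inside that range. Among 784 abundant genes the median absolute log2 difference was 0.14 between wild type replicates 1 and 2, 0.42 and 0.291 from wild type replicate 3 to each of them, and 0.117 to 0.187 between knockout libraries, so that wild type replicate 3 stood apart from its group.

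Of the 7 serine and glycine genes 1 was called lower by limma, 3 were lower at an unadjusted p under 0.05 and 2 had groups without overlap. For this and each pathway below, the shares over all tested genes were 1.65% called lower and 13.0% with all knockout libraries below wild type. At an unadjusted p under 0.05 they were 10.0% lower and 8.65% higher. With so few genes in a pathway, a count of 1 or 2 can lie near these shares. The called gene, Gldc, encodes the glycine decarboxylase of the glycine cleavage system (ENSMUSG00000024827, chromosome 19, 30098447 to 30175429, minus strand, mm10). This mitochondrial complex splits glycine into carbon dioxide, ammonia and a carbon unit passed to folate. Gldc was at 28.2, 30.2 and 24.5 FPKM in the wild type libraries and at 11.3, 14.7 and 15.6 FPKM in knockout replicates 1, 2 and 3. All knockout libraries lay well below all wild type libraries. The mean fell from 27.6 ± 2.92 to 13.9 ± 2.24 FPKM (SD, n = 3 each), by limma a log2 change of -0.95 ± 0.15 (SE; adjusted p 0.0183). The adjusted p was 0.0844 without wild type replicate 2, 0.0537 and 0.0541 without knockout replicates 1 and 3, and 0.0536 if low genes were kept.

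The partners of Gldc in the complex did not pass the test. Amt, the aminomethyltransferase that hands the carbon unit to folate, was at 23.1, 22.1 and 19.9 FPKM in the wild type libraries and 14.1, 16.2 and 20.2 FPKM in the knockout libraries (adjusted p 0.242). Knockout replicate 3 reached the wild type range of Amt. Gcsh, the carrier protein of the complex, was at 90.3 ± 15.5 and 84.7 ± 4.44 FPKM in the wild type and knockout groups (SD, n = 3 each), and Dld, the dehydrogenase it shares with other complexes, at 65.2 ± 5.34 and 61.2 ± 2.12 FPKM (SD, n = 3 each). The ratio of Gldc to Amt was 1.22, 1.36 and 1.23 in wild type and 0.801, 0.905 and 0.771 in knockout. Relative to Amt and to Gcsh, Gldc was thus lower in every knockout library than in every wild type library.

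Pcca encodes the biotin-carrying alpha subunit of propionyl-CoA carboxylase (ENSMUSG00000041650, chromosome 14, 122534324 to 122891100, plus strand, mm10). The enzyme carries propionyl-CoA from isoleucine, valine, methionine and threonine towards the citric acid cycle. Pcca was at 89.5, 119 and 121 FPKM in the wild type libraries and at 64.3, 61.5 and 67.4 FPKM in knockout replicates 1, 2 and 3. The knockout libraries were close together and below the lowest wild type library. The mean fell from 110 ± 17.6 to 64.4 ± 2.92 FPKM (SD, n = 3 each), by limma a log2 change of -0.75 ± 0.15 (SE; adjusted p 0.0411). That p was 0.176 without wild type replicate 2, 0.135, 0.108 and 0.141 without knockout replicates 1, 2 and 3, and 0.0714 if low genes were kept.

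Pcca overlaps, in whole or in part, a gene on the opposite strand, Ggact, whose mean was 120 FPKM in the wild type libraries and 119 FPKM in the knockout libraries. The sources used here do not say whether the counting used strand, so reads where both genes are transcribed cannot be told apart. In all, 10 of the 41 genes overlap another gene of the table on either strand (Afmid, Bckdha, Hpd, Kmo, Oat, Pcca, Prodh, Sds, Shmt1 and Shmt2), so their values are less certain. Of the genes they overlap, Fh1 (with Kmo), Ggact and Dgcr6 (with Prodh) had the highest levels.

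The promoters of the 2 called genes are shown because these were the members that fell; both come from RefSeq (GRCm38.p6) and cover the 250 bases before the start site, 5′ to 3′, for Gldc chr19:30175442-30175691 (minus strand) and for Pcca chr14:122534078-122534327 (plus strand, the start site nearest the principal transcript of 2 in RefSeq). Capitals mark matches to any of 5 motifs searched on both strands, TGACG (core of the cyclic AMP response element), AGAACA (core of the glucocorticoid receptor site), TATAAA (the TATA box), CCAAT and AGGTCA (core of many nuclear receptor sites), none of which overlapped another.
Gldc: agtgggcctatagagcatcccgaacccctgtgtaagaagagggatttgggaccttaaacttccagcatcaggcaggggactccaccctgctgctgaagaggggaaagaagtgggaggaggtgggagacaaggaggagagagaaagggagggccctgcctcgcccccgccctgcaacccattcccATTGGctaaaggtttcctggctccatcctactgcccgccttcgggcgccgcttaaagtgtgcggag
Pcca: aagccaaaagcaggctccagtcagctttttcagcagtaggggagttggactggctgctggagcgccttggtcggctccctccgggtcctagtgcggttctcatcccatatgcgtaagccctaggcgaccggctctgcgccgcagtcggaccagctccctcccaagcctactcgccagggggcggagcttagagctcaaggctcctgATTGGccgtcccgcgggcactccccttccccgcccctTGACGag
In both windows CCAAT was found once on the reverse strand, where it reads as ATTGG, 66 to 62 bases before the start in Gldc and 44 to 40 bases before it in Pcca. The Pcca window also held TGACG, 7 to 3 bases before the start. Of 32851 RefSeq windows of the same length 33.8% held CCAAT and 17.8% held TGACG on either strand. TATAAA (held by 12.4% of windows), AGAACA (16.1%) and AGGTCA (14%) are not spelled in either sequence. The windows had a GC content of 59.6% (Gldc) and 64.8% (Pcca), with 8 and 17 CpG sites, against medians of 52.4% and 6 over all windows. A match is a description of the letters, and no binding was measured.

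Pcca was the only 1 called of the 9 genes of branched-chain and propionyl breakdown, of which 3 were lower at an unadjusted p under 0.05 and 4 had groups without overlap. Pccb, the beta subunit that works with Pcca, was at 76.1, 81.6 and 90.6 FPKM in the wild type libraries and 61.6, 71.4 and 68.0 FPKM in the knockout libraries (adjusted p 0.242). Mccc2, a subunit of the carboxylase of leucine breakdown, was at 28.0, 29.4 and 28.1 FPKM in the wild type libraries and 19.7, 24.4 and 25.5 FPKM in the knockout libraries (adjusted p 0.259). For both genes all knockout libraries were below all wild type libraries, but the differences were small. Mccc1, the partner subunit, was at 25.8 ± 2.41 and 20.6 ± 3.26 FPKM (SD, n = 3 each) with overlapping libraries.

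Earlier steps of the branched-chain pathway lay nearer to 0. Bckdha and Bckdhb, the alpha and beta subunits of the branched-chain keto acid dehydrogenase, had log2 changes of -0.16 (95% interval -0.40 to 0.09) and -0.17 (-0.47 to 0.14), without overlap between the groups in Bckdha. Dbt, the core subunit of that complex, Bcat2, the mitochondrial branched-chain transaminase, and Ivd, the isovaleryl-CoA dehydrogenase, had log2 changes of 0.05, 0.06 and 0.01, with 95% intervals inside -0.38 to 0.40. Bcat2 was low, at 16.6 ± 1.07 and 17.4 ± 2.16 FPKM in the wild type and knockout groups (SD, n = 3 each). Bckdk, the kinase gene that switches the dehydrogenase complex off, was at 7.84 ± 1.32 and 6.97 ± 1.19 FPKM in the wild type and knockout groups (SD, n = 3 each). Ppm1k, the phosphatase gene that switches it on, was at 11, 9.09 and 3.74 FPKM in the wild type libraries and 5.52, 4.81 and 5.2 FPKM in the knockout libraries (adjusted p 0.519). Wild type replicate 3 was the lowest of all, and without it Ppm1k was called lower by limma.

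Tyrosine breakdown includes the most abundant of the 41 transcripts, and 0 of its 4 genes were called by limma, as were 0 at an unadjusted p under 0.05. Hpd, the 4-hydroxyphenylpyruvate dioxygenase, was at 1754.4, 2009.6 and 2026.7 FPKM in the wild type libraries and 1752.1, 2301.1 and 2007.2 FPKM in the knockout libraries. Its groups overlapped almost completely. Hgd, the homogentisate dioxygenase of the next step, was at 460, 573 and 790 FPKM in the wild type libraries and 340, 505 and 535 FPKM in the knockout libraries (adjusted p 0.451). The spread of Hgd within wild type, highest in replicate 3, was as wide as the difference between the groups. Tat, the tyrosine aminotransferase that opens the pathway, was at 459 ± 68.9 and 386 ± 99.3 FPKM, and Fah, the fumarylacetoacetate hydrolase that closes it, at 438 ± 19.4 and 408 ± 15 FPKM (SD, n = 3 each).

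In the kynurenine pathway of tryptophan, log2 changes lay on either side of 0, with a median of -0.03, and 0 genes were called by limma. Of 7 genes 2 were lower and 1 was higher at an unadjusted p under 0.05. Tdo2, the tryptophan dioxygenase that starts the pathway in liver, was at 980, 924 and 1073.2 FPKM in the wild type libraries and 958, 1022.8 and 931 FPKM in the knockout libraries. Its log2 change was -0.03, with a 95% interval of -0.32 to 0.26. Ido2, a second dioxygenase at a far lower level, was at 16.7, 21.1 and 17.7 FPKM in the wild type libraries and 10.6, 17.9 and 11.8 FPKM in the knockout libraries (adjusted p 0.259). Knockout replicate 2 lay within the wild type range of Ido2.

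Afmid, the formamidase of the next step, had the smallest p of the pathway. It was at 43.9, 45.1 and 33.2 FPKM in the wild type libraries and 21.2, 30.4 and 23.4 FPKM in the knockout libraries, a log2 change of -0.68 ± 0.18 (SE; adjusted p 0.0901). All knockout libraries lay below all wild type libraries, and without wild type replicate 3, the lowest of its group, the adjusted p was 0.034. Kmo (kynurenine monooxygenase), Kynu (kynureninase) and Haao (3-hydroxyanthranilate dioxygenase) had log2 changes of -0.27, 0.02 and 0.01, and that of Kmo was -0.14 without knockout replicate 1.

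Acmsd, the decarboxylase that diverts the pathway away from NAD synthesis, had the lowest wild type mean of the 41 genes and was the only one higher in knockout at an unadjusted p under 0.05. It was at 2.47, 4.75 and 3.48 FPKM in the wild type libraries and 5.21, 9.12 and 7.31 FPKM in the knockout libraries. Every knockout library was above every wild type library. The ratio of means was 2.02, with a log2 change of 0.85 ± 0.23 (SE; adjusted p 0.105), which misses the threshold. At the inferred depth, a rough figure, these values stood on about 242 to 881 fragments per library or fewer. Qprt, which takes the branch towards NAD, was at 68.2 ± 8.01 and 61.1 ± 5.26 FPKM in the wild type and knockout groups (SD, n = 3 each).

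All 4 genes of histidine breakdown had log2 changes below 0, and 0 were called by limma, with 2 lower at an unadjusted p under 0.05. Uroc1, the urocanase of the second step, was at 95.5, 106 and 88.4 FPKM in the wild type libraries and 63.6, 72 and 64.5 FPKM in the knockout libraries, a log2 change of -0.53 ± 0.12 (SE; adjusted p 0.0695). The knockout libraries were close together and all below wild type, and the adjusted p was 0.0323 without wild type replicate 3. Ftcd, which passes the last carbon of histidine to folate, was at 139, 169 and 161 FPKM in the wild type libraries and 89.5, 130 and 112 FPKM in the knockout libraries (adjusted p 0.159), again without overlap. Hal, the histidine ammonia-lyase of the first step, was at 110 ± 17.2 and 86.7 ± 19.7 FPKM, and Amdhd1, the imidazolonepropionase of the third, at 80 ± 10.9 and 74.7 ± 14.1 FPKM (SD, n = 3 each), with overlapping libraries in either case.

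**Figure D3:**
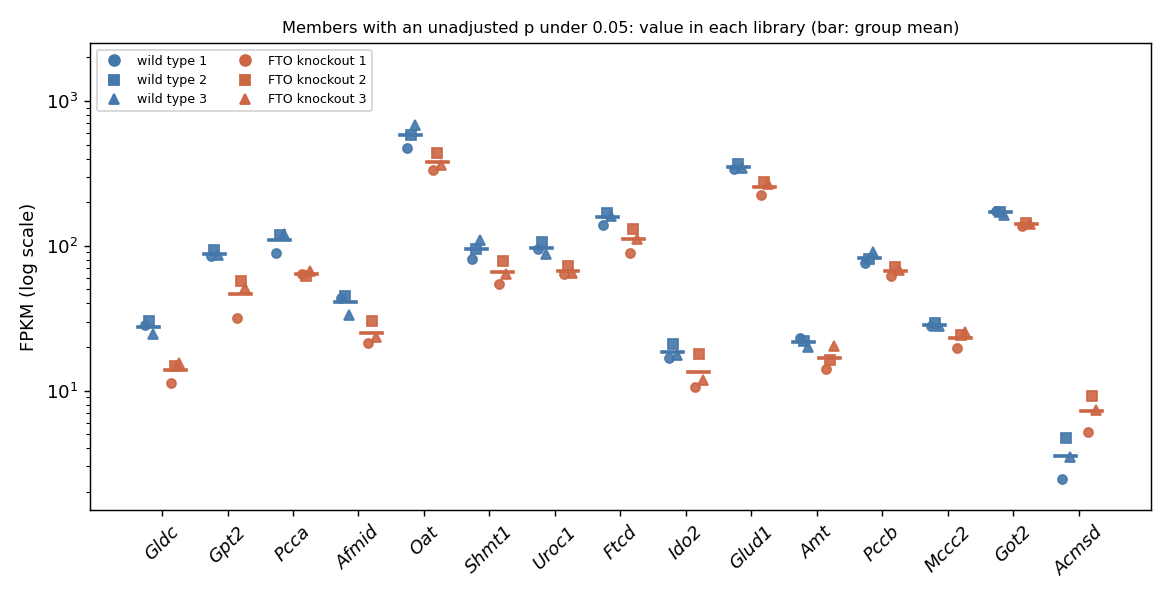
FPKM in each of the 6 libraries, on a log axis, for the 15 genes with an unadjusted p under 0.05, ordered by log2 change; bars are group means. The 3 knockout libraries sit apart from the wild type libraries in all but Ido2 and Amt, and above them only in Acmsd.

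Among the genes of serine and folate-linked carbon units, Shmt1 and Shmt2 encode the cytosolic and the mitochondrial hydroxymethyltransferase that interconvert serine and glycine. Shmt1 was at 81.2, 95.1 and 110 FPKM in the wild type libraries and 54.7, 78.5 and 63.5 FPKM in the knockout libraries (log2 change -0.54, adjusted p 0.155). All knockout libraries were below all wild type libraries. Shmt2 was at 72.4 ± 3.02 and 65.2 ± 7.17 FPKM (SD, n = 3 each) with overlapping libraries.

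Sds, the serine dehydratase that turns serine into pyruvate, varied most of the 41 genes within wild type. Its mean was 143 ± 80.6 FPKM in wild type, with a coefficient of variation of 56.4%, and 86.3 ± 26.3 FPKM in knockout (SD, n = 3 each; log2 change -0.63, adjusted p 0.458). The wild type spread came from replicate 3, at 233 FPKM against 79.5 and 115 FPKM. The log2 change of Sds was -0.20 without that library, -0.97 without wild type replicate 1 and -0.34 without knockout replicate 1. Its paralogue Sdsl was far lower, at 6.52 ± 1.28 and 7.10 ± 1.66 FPKM (SD, n = 3 each).

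Of the 3 genes of proline and ornithine breakdown, 0 were called by limma and 1 was lower at an unadjusted p under 0.05. Oat, the ornithine aminotransferase, was at 472, 586 and 680 FPKM in the wild type libraries and 334, 435 and 362 FPKM in the knockout libraries, a log2 change of -0.61 ± 0.18 (SE; adjusted p 0.119). Its groups did not overlap. Prodh, the proline dehydrogenase, was at 86.2 ± 14.3 and 63.5 ± 16.7 FPKM, and Prodh2, the hydroxyproline dehydrogenase, at 117 ± 10.3 and 95.9 ± 8.49 FPKM (SD, n = 3 each), without overlap in Prodh2 only.

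Of the 5 transaminase and glutamate genes, 0 were called by limma and 3 were lower at an unadjusted p under 0.05, all 3 of them genes of mitochondrial enzymes. Gpt2, the mitochondrial alanine transaminase, was at 84.7, 93.7 and 86.8 FPKM in the wild type libraries and at 31.5, 57.4 and 51.0 FPKM in knockout replicates 1, 2 and 3. The wild type libraries were close together, and all knockout libraries lay far below them. Its log2 change of -0.95 equalled that of Gldc to 2 decimals, but with an SE of 0.21 the adjusted p was 0.065. Glud1, the glutamate dehydrogenase, was at 337, 368 and 343 FPKM in the wild type libraries and 225, 277 and 267 FPKM in the knockout libraries (log2 change -0.45, adjusted p 0.121).

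Got2, the mitochondrial aspartate transaminase, was at 175, 172 and 163 FPKM in the wild type libraries and 136, 144 and 142 FPKM in the knockout libraries (adjusted p 0.239). Glud1 and Got2 also had groups without overlap. The cytosolic counterparts showed no such separation. Gpt was at 115 ± 10.8 and 97.2 ± 17.3 FPKM, and Got1 at 74.6 ± 34 and 79.8 ± 18.7 FPKM (SD, n = 3 each), with wild type replicate 3 again high, at 113 FPKM.

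Aass, which performs the first steps of lysine breakdown, was at 74.8, 91.2 and 94.5 FPKM in the wild type libraries and 73.3, 77.6 and 103 FPKM in the knockout libraries. The groups overlapped throughout. Agxt, the transaminase that detoxifies glyoxylate to glycine, was at 134, 131 and 99.4 FPKM in the wild type libraries and 128, 185 and 172 FPKM in the knockout libraries (log2 change 0.41, adjusted p 0.296, and 0.27 on the log2 scale without wild type replicate 3). Knockout replicate 1 lay within the wild type range of Agxt, unlike the other knockout libraries.

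Members that share a complex or catalyse the same reaction were compared by the ratio of their FPKM values within each library, a measure on which scaling of a library has no bearing. The 10 pairs were chosen after the values were seen. In 5 pairs, every knockout ratio was below every wild type ratio. Each gave an exact two-sided permutation p of 0.1 (0.2 adjusted over the 10 pairs). That is the smallest p that 3 against 3 libraries allow, so that no pair could pass the threshold. The share of other gene pairs that separate in this way was not measured, so the count of 5 has no background here. Pcca to Pccb was 1.18, 1.46 and 1.33 in wild type and 1.04, 0.862 and 0.991 in knockout. Gpt2 to Gpt was 0.817, 0.805 and 0.693 in wild type and 0.379, 0.493 and 0.556 in knockout. In these and in Gldc to Amt, the gene written first was lower relative to its partner in the knockout libraries. Which gene is written first was a choice, so the shared direction is not a result. Gldc to Amt and Gldc to Gcsh also share a gene.

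Shmt1 to Shmt2 and Gldc to Gcsh also separated the groups, with means of 1.32 ± 0.189 and 1 ± 0.0935 for the former and 0.315 ± 0.0763 and 0.163 ± 0.0251 for the latter (SD, n = 3 each). By contrast Bckdha to Bckdhb was 1.90 ± 0.131 in wild type and 1.91 ± 0.167 in knockout, and Mccc1 to Mccc2 was 0.903 ± 0.0697 and 0.887 ± 0.0807 (SD, n = 3 each). For those subunits, the exact permutation p was 1 and 0.9 (n = 3 each). Got2 to Got1, Prodh to Prodh2 and Sds to Sdsl overlapped.

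**Figure D4:**
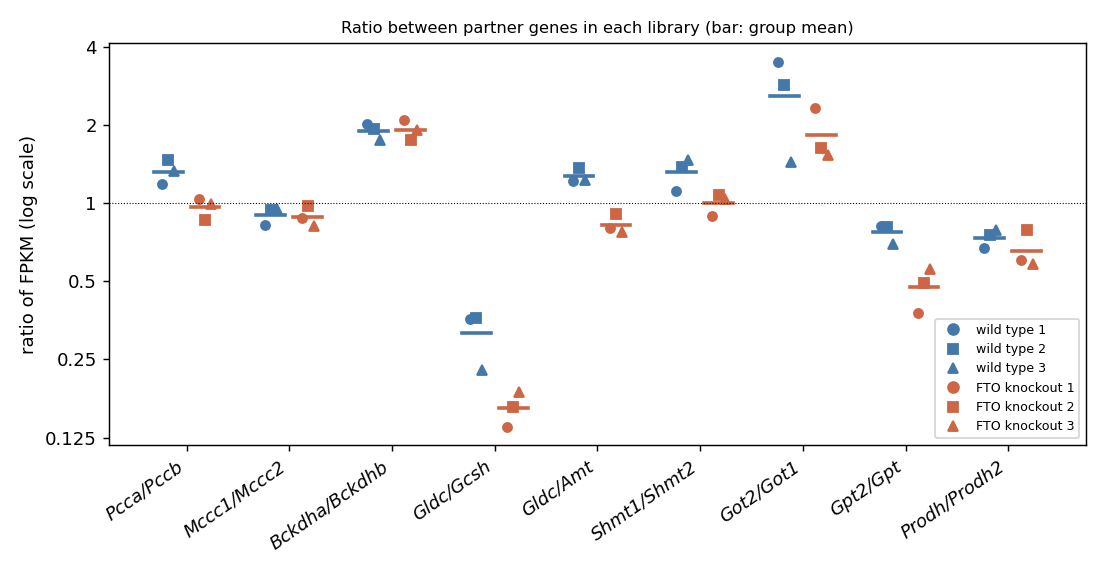
Ratio of FPKM between partner genes in each library, on a log axis, with bars at the group means; the pair Sds and Sdsl, at 7.05 to 30.8, is left off the axis. The groups separate for Pcca/Pccb, Gldc/Gcsh, Gldc/Amt, Shmt1/Shmt2 and Gpt2/Gpt and overlap for the other pairs.

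Sorted by the compartment in which the enzyme works, a sorting made after the values were seen, 10 of 21 genes of mitochondrial enzymes and 5 of 19 genes of cytosolic enzymes had all knockout libraries below wild type, as had 13.0% of all tested genes. The median log2 changes were -0.28 and -0.25. Agxt, found in mitochondria or peroxisomes, was left out of this count. The 2 medians thus lay close together, and the difference between the compartments was not tested.

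On chromosome 8, which carries Fto, lie 5 of the 41 genes. Gpt2 and Got2 lie 5.79 and 4.2 Mb from Fto, and Tat, Gcsh and Ido2 lie 18.3, 25.3 and 66.7 Mb away. Any part of this position in their values was not tested.

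A wider list of 69 other genes of amino acid metabolism held 64 tested genes, of which 3 were called lower and 0 higher by limma, with 19 lower and 4 higher at an unadjusted p under 0.05. In 20 of the 64 all knockout libraries were below wild type and in 4 above, and the median log2 change was -0.14. Over all tested genes the shares were 1.65% and 1.11% called lower and higher, 10.0% and 8.65% at an unadjusted p under 0.05, and 13.0% and 11.5% without overlap. Bhmt, the betaine-homocysteine methyltransferase, fell from 1447.1 ± 97.8 FPKM to 702 ± 82.2 FPKM (SD, n = 3 each; log2 change -1.05, adjusted p 0.0101). Gcdh, the glutaryl-CoA dehydrogenase that follows Aass in lysine breakdown, fell from 333 ± 24.8 FPKM to 200 ± 20 FPKM (SD, n = 3 each; adjusted p 0.0304), and it lies 6.42 Mb from Fto. Hoga1, the aldolase that yields glyoxylate from hydroxyproline downstream of Prodh2, fell from 76.3 ± 8.02 FPKM to 44.1 ± 6.67 FPKM (SD, n = 3 each; adjusted p 0.0376).

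All 3 calls were lost without wild type replicate 2 or knockout replicate 1 or 3, with adjusted p-values of 0.0559, 0.0508 and 0.071 for Bhmt, 0.146, 0.122 and 0.141 for Gcdh and 0.139, 0.13 and 0.151 for Hoga1. That of Gcdh was also lost without knockout replicate 2 (0.0533), and those of Gcdh and Hoga1 with no filter on low values (0.0538 and 0.0665). The next gene by p was Hsd17b10, a dehydrogenase of isoleucine breakdown, at 270 ± 30.5 and 176 ± 5.99 FPKM in the wild type and knockout groups (SD, n = 3 each; adjusted p 0.0511).

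A list of regulators, which also holds glucocorticoid targets, was measured as well. Limma called 0 of its 13 genes, and 2 were lower and 1 higher by the unadjusted p (under 0.05). For this list and the marker lists below, the shares over all tested genes by that measure were 10.0% lower and 8.65% higher. With 13 genes, counts of 1 or 2 can lie near these shares. Tsc22d3, a textbook glucocorticoid target, was at 42.2, 42.6 and 45.2 FPKM in the wild type libraries and at 15.6, 33.9 and 22.9 FPKM in knockout replicates 1, 2 and 3 (adjusted p 0.11). Its lowest library was knockout replicate 1, as for most of the 41 genes. Fkbp5, another glucocorticoid target in the list, went the other way in its means, at 10.2 ± 8.77 and 16.1 ± 8.68 FPKM in the wild type and knockout groups (SD, n = 3 each), with overlapping libraries. Cebpb, a transcription factor gene, was at 56.8 ± 6.06 and 44.4 ± 1.25 FPKM, and Hnf4a, which encodes a nuclear receptor of hepatocytes, at 71.8 ± 6.33 and 89.7 ± 10.4 FPKM (SD, n = 3 each). Ppargc1a, a coactivator of fasting genes, was at 2.26 ± 1.25 and 1.17 ± 0.509 FPKM (SD, n = 3 each).

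The labelled tissue showed the markers of liver. Of the markers of kidney and exocrine pancreas, Umod, Kap, Cpa1 and Pnlip were listed at 0 in every library. The remaining kidney marker, Slc34a1, was at no more than 0.00961 FPKM in any library. The pancreatic list summed to 21.1 to 23.1 FPKM in wild type and 28 to 43.6 FPKM in knockout, all of it from Cela1. Of 8 hepatocyte markers 7 had a higher mean in knockout, 6 were higher at an unadjusted p under 0.05 and 6 had all knockout libraries above wild type, with a median log2 change of 0.57. Ahsg, which encodes fetuin-A, rose (adjusted p 0.0425 by limma). Their summed level was 43789.9 to 64136.4 FPKM in wild type and 51845.9 to 54519.3 FPKM in knockout. The largest part of that sum came from Apoa2, an apolipoprotein gene at 24792.6 to 43343.7 FPKM in wild type and 23368.1 to 26692.0 FPKM in knockout. Apoa2 was the 1 marker with a lower mean in knockout. All 8 Kupffer cell markers had higher means in knockout, with sums of 46, 77.9 and 157 FPKM in the wild type libraries and 178, 130 and 233 FPKM in the knockout libraries, and 0 were called by limma, with 3 higher at an unadjusted p under 0.05. The 3 erythroid markers summed to 230, 371 and 473 FPKM in wild type and 225, 189 and 259 FPKM in knockout, with 2 of the 3 lower at an unadjusted p under 0.05. The sums of the endothelial and stellate cell lists, most of which came from Clec4g and Dcn, overlapped between the groups, at 29.4 to 70 and 59.4 to 92.7 FPKM over all libraries. Within these lists Lyve1, an endothelial marker, was at 2.04, 1.29 and 3.26 FPKM in the wild type libraries and 0.726, 1.15 and 1.11 FPKM in the knockout libraries (adjusted p 0.178), and Lrat, a stellate cell marker, was at 2.11 ± 0.585 and 1.45 ± 0.249 FPKM (SD, n = 3 each), both with all knockout libraries below wild type. Lymphocyte, neutrophil and adipocyte lists summed to at most 2.55, 11.9 and 0.273 FPKM, and 5 of 6 cholangiocyte markers were under 1 FPKM in every library. The part of these cells in the values of the 41 genes was not tested.

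Several of the 41 genes are zonated along the liver lobule, Hal and Sds near the portal vein and Oat near the central vein. Limma called 0 of the 15 zonation markers in the table, and 2 were higher and 1 lower by the unadjusted p (under 0.05). Among all tested genes 8.65% were higher and 10.0% lower by that measure, so such counts can lie near these shares. The 7 periportal markers had a median log2 change of 0.14 and the 8 pericentral ones 0.01. Sums were 1788.6 to 2033.6 FPKM in wild type and 1814.4 to 2029.5 FPKM in knockout for the periportal markers. For the pericentral markers they were 4660.0 to 5455.8 FPKM and 4373.1 to 5525.4 FPKM, so that the sums of either list overlapped between the groups. Most of the pericentral sum came from Cyp2e1, at 3531.6 to 4547.0 FPKM over all libraries, so it says little of the other pericentral markers. The 2 markers higher at an unadjusted p under 0.05 were periportal, Cdh1 and Cyp2f2. Cdh1, the E-cadherin gene, was at 0.535 ± 0.254 and 1.64 ± 0.435 FPKM in the wild type and knockout groups (adjusted p 0.0567 by limma). Cyp2f2, a cytochrome P450 gene, was at 381 ± 22.4 and 477 ± 15.7 FPKM (SD, n = 3 each, adjusted p 0.193 by limma). Glul, the glutamine synthetase of the last pericentral cell layer, had a log2 change of -0.01 with a 95% interval of -0.38 to 0.37. Oat was the only pericentral marker of these 8 whose groups did not overlap.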

How the data were processed

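RNA-seq of mouse liver was deposited as a table of FPKM values (fragments per kilobase of transcript and of sequencing depth) per gene, made by the authors. That the unit is FPKM was read from the table and its values. The submitters' processing notes name TopHat2 2.1.0, HTSeq, Cufflinks 2.2.1 and the mm10 build; their roles, the annotation release and the use of strand are not given in the sources used here. Gene names came from GENCODE M21 for 24807 of 25690 genes, and Mmut was matched as Mut. Rhbg and Trac were not analysed here. Read counts are not analysed here, so depth was inferred from the steps between low values, within a range set in advance.

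Groups were compared with limma 3.58.1 in R 4.3.3 on log2(FPKM + 1), with a trend in the variance, for the 10405 genes whose FPKM averaged 1 or more, and p-values were adjusted by Benjamini-Hochberg over all of them. Fold changes on this scale understate those of low genes. Replicates were numbered in accession order and pair nothing. In data simulated for the FTO knockout against wild type comparison, on 10405 genes, limma called 74 of 100 genes given a log2 change of 1 and 94 of 100 given one of 2, with 3 false calls among 171. The simulated noise was drawn for each gene separately. Shifts shared by many genes of a library were left out, so these counts may not hold for the real libraries. Values are given per library for called members, members with an unadjusted p under 0.05, the 3 most abundant and the member of smallest p in each pathway, and promoters (RefSeq, GRCm38.p6) for called members. Of the other lists, called genes and up to 4 of smallest p are named. Dld, Bckdk, Ppm1k, Acad8, Hibch, Acadsb, Qprt, Glul, Asns, Csad, Fkbp5, Apoa2, Clec4g, Dcn, Lyve1, Lrat, Cyp2e1, Slc34a1 and the markers at 0 were added after their values were seen. The members and lists were chosen with earlier results of these data known. Alternatives were other normalizations, filters, a pseudocount of 0.1, robust moderation and each library left out.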

Additional observations from a re-analysis of the deposited data

How the results depend on the processing

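The count of members called lower (2 by limma) was 0 with no filter on low values and ranged from 0 to 4 with each library left out. It was 0 without wild type replicate 2 and without knockout replicates 1 and 3. The median log2 change of the members ranged from -0.33 to -0.15 with a library left out, the latter without knockout replicate 1. Over all tested genes the counts called higher and lower (115 and 172) were 180 and 225 after quantile normalization, 87 and 93 with no filter, 69 and 96 with a mean of at least 5 FPKM, and ranged from 43 to 312 and from 49 to 240 with a library left out. The highest of these, 312 and 240, were both found without wild type replicate 3. Of the other amino acid genes (0 higher, 3 lower), 2 were called higher with median ratio size factors and 1 after quantile normalization, with robust moderation and with a mean of at least 5 FPKM, and 0 to 1 with a library left out. Called lower were 5 with median ratio size factors, 6 after quantile normalization, 6 with equal sums outside the mitochondrial genome and 1 with no filter, and 0 to 7 with a library left out. Of the regulators 0 to 1 was called lower with a library left out, and of the zonation markers 1 was called higher with robust moderation and 0 to 1 with a library left out.

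Members near 0 changed sign. After quantile normalization Tdo2 was at 0.11 and Aass at 0.01, and with equal sums Kynu was at -0.02, Haao at -0.03 and Ivd at -0.03. With a library left out the log2 change ranged from -0.04 to 0.16 for Hpd, -0.08 to 0.03 for Tdo2, -0.15 to 0.15 for Kynu, -0.07 to 0.06 for Haao, -0.23 to 0.05 for Amdhd1, -0.04 to 0.28 for Sdsl, -0.17 to 0.06 for Gcsh, -0.08 to 0.50 for Got1, -0.02 to 0.12 for Dbt, -0.01 to 0.15 for Bcat2, -0.09 to 0.16 for Ivd and -0.19 to 0.05 for Aass. The difference in log2 change ranged from -0.09 to 0.03 between Mccc1 and Mccc2 and from -0.05 to 0.07 between Bckdha and Bckdhb. The causes were not tested. No paired analysis was possible because the labels give no replicate numbers shared by the groups. With 3 libraries a group, the spread between libraries limits what could be called.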

Other observations

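Asns, the asparagine synthetase, was at 0.637, 0.510 and 0.322 FPKM in the wild type libraries and at 8.83, 0.910 and 3.48 FPKM in FTO knockout replicates 1, 2 and 3. Every knockout library was above every wild type library (adjusted p 0.159 by limma), though knockout replicate 2 was close to wild type replicate 1. Knockout replicate 1 held the highest Asns value and also the lowest values of most amino acid catabolism genes. Any link between the 2 was not tested. Csad, a gene of the route from cysteine to taurine, was at 94.8, 57.4 and 47.2 FPKM in the wild type libraries and 174, 46.0 and 171 FPKM in knockout, with knockout replicate 2 below all wild type libraries. Fkbp5, a glucocorticoid target, was at 5.24, 5.10 and 20.4 FPKM in the wild type libraries and 6.64, 23.7 and 17.9 FPKM in knockout, so that within the wild type group it was high only in replicate 3, the library that also held the highest Sds and Got1 values.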
